A study of Mus musculus with 8 samples.

Results

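Fibroblast growth factors (FGFs) and their receptors were examined in single-nucleus RNA libraries of adult mouse heart. The set holds 10 genes chosen by name from the 32285 genes of the count tables: the 7 secreted ligands Fgf1, Fgf2, Fgf7, Fgf9, Fgf10, Fgf16 and Fgf18, and the 3 receptors Fgfr1, Fgfr2 and Fgfr3. All 10 were present in the tables. The labels name 8 libraries, 2 for each sex and genotype, where the genotype is wild type without the transgene (WT, nTg) or carries the cyclin A2 transgene (Tg-ccna2, Tg). The series text calls Ccna2 constitutively expressed in Tg animals, and the labels name neither a promoter nor a strain or age beyond adult. Only 5 libraries were analysed, those whose matrix had as many columns as their own barcode list: nTg female 1, then Tg female 1 and 2, then Tg male 1 and 2. Nothing in the labels says that the libraries come from separate animals, so spreads and p-values cover the differences between these libraries, which may be technical. Intervals given below cover counting error only.

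Secreted FGFs bind receptor tyrosine kinases on neighbouring cells, or on the cell that made them, together with heparan sulfate chains of the cell surface and matrix. Activated receptors signal through the adaptors FRS2 and GRB2 and the SOS, RAF and MAP kinase chain, and Sprouty and DUSP proteins damp the signal. In heart, FGF2 is known for its part in growth and repair, FGF9 and FGF16 for the growth of the developing myocardium, and FGF10 and FGF7 as mesenchymal ligands that act mainly through an epithelial splice form of FGFR2. The libraries count messages in nuclei, so they show which cell types hold transcripts of a ligand or a receptor and not whether a ligand reaches a receptor. Splice forms are not resolved by these counts.

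The 5 libraries held between 25045167 and 38593706 UMIs (unique molecular identifiers, each standing for 1 captured RNA molecule), and 34385 nuclei were kept. Pairs of libraries shared between 6 and 21 cell barcodes, at most 0.33% of the smaller library. Nuclei fell into 12 types named by likeness to marker lists (cardiomyocyte-like and so on, shortened below to the type). No marker of a type's own list was at 0 in it, which is no check of the names. The lists gave the names, and the cardiomyocyte list had 0 markers at 0 in fibroblasts too. In cardiomyocytes, Ccna2 stood at 444 UMIs per 1000000 (CPM, counts scaled to the total of the type) in the library labelled nTg female 1 and at 0.524 CPM in that labelled Tg female 1. The other 3 libraries, labelled Tg, ran from 143 to 820 CPM, so Ccna2 went against 2 labels. Below, the genotype labels serve as names and to group libraries, and are not taken as known genotypes. They pick the libraries of the sex contrast, and an alternative fit has them as a covariate. Xist was at 1283 CPM or more in the libraries labelled female and at 8.18 CPM or less in those labelled male.

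Of the 12 types, 8 had at least 50 nuclei in every library and were compared library by library. Each member's level is its share of all UMIs in the summed nuclei of a type, in CPM, and differences in level between genes are not read because gene length and introns affect capture. For 5 of the 10 members (Fgf1, Fgf9, Fgf10, Fgfr2 and Fgfr3), all 5 libraries of the leading type lay above every library of every other type. The same held for 30.7% of the 13873 genes with at least 10 CPM in a type, so such a pattern is common. The types are clusters of these nuclei, made without the members, and no test of a type against the rest was made. Fgf18 stayed below 10 CPM in all 8 types.

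**Figure D1:**
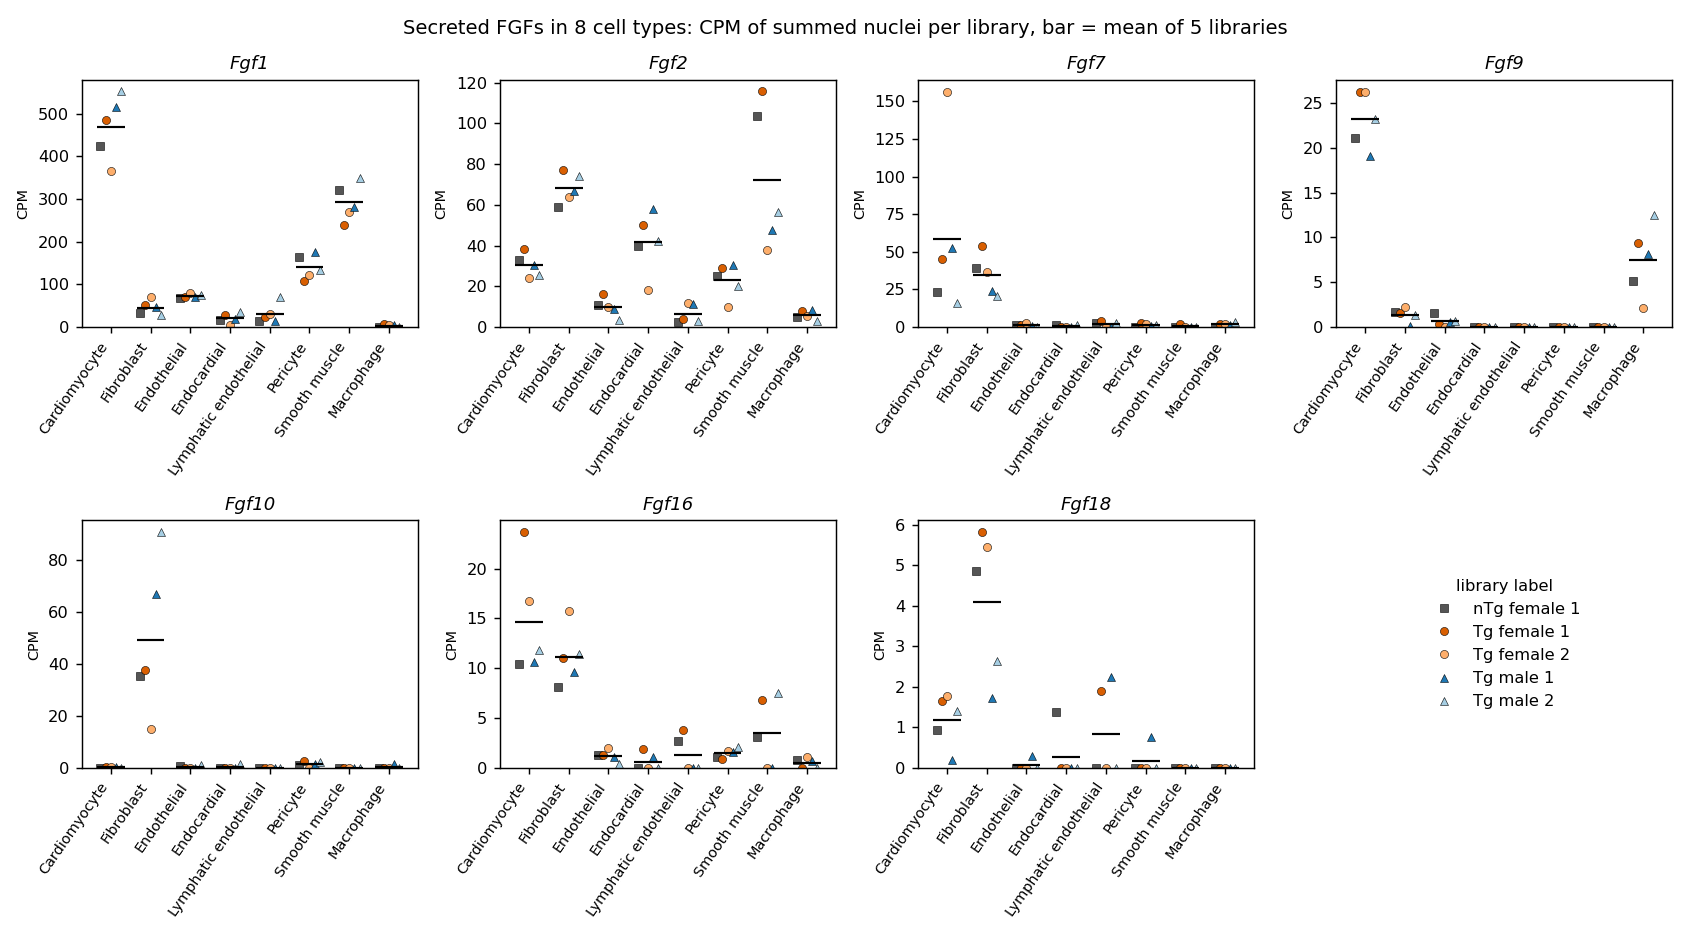
Levels of the 7 secreted ligands in 8 cell types. The vertical axis is CPM of the summed nuclei, on a scale of its own in each panel; each point is a library and each bar the mean of 5 libraries. Fgf10 stands out in fibroblasts and lies close to 0 elsewhere, Fgf1 spans 4 types with cardiomyocytes highest, and the Fgf7 point of 157 CPM in cardiomyocytes is the library labelled Tg female 2.

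Fgf1, a ligand that can activate all FGF receptors, was highest in cardiomyocytes, followed in order by smooth muscle, pericytes and endothelial nuclei. In cardiomyocytes it stood at 425 CPM in nTg female 1, 486 and 367 CPM in Tg female 1 and 2, and 517 and 552 CPM in Tg male 1 and 2 (mean 469 ± 74.0, SD, n = 5). Smooth muscle held 292 ± 43.5 CPM, pericytes 141 ± 28.4 CPM and endothelial nuclei 72.8 ± 4.81 CPM. These 4 types kept this order in all 5 libraries, and no library range overlapped that of its neighbour. Fibroblasts had 45.4 ± 16.8 CPM, while macrophages had 3.29 ± 2.40 CPM. Macrophage nuclei thus held 0.724% ± 0.531 of the cardiomyocyte level, and the sarcomere gene Ttn, which macrophages lack, stood there at 0.902% ± 0.290 of its cardiomyocyte level. For endothelial nuclei the figures were 15.9% ± 3.57 for Fgf1 and 1.32% ± 0.186 for Ttn. Another sarcomere gene, Myh6, stood there at 7.72% ± 2.42. A protein-coding gene overlaps Fgf1 on the opposite strand, and the limit given below for Fgf7 holds for Fgf1 too.

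Within the endothelial nuclei, Fgf1 and the receptor Fgfr3 ran in opposite orders over the 3 clusters. Cluster 7 (3608 nuclei, led by Car4, which marks capillaries) held the most Fgf1, with 98.7, 115, 117, 96.3 and 104 CPM in nTg female 1, then Tg female 1 and 2, then Tg male 1 and 2. Cluster 9 (1506 nuclei, led by G630055G22Rik and Lhx6) held 63.3 ± 11.3 CPM of Fgf1 and cluster 8 (1913 nuclei, led by Sema3g, Mannr and Gja5) held 20.3 ± 3.68 CPM. Sema3g and Gja5 are known from arterial endothelium. Fgfr3 was highest in cluster 8, with 187, 155, 140, 219 and 248 CPM in the same library order, against 101 ± 19.6 CPM in cluster 9 and 39.8 ± 3.48 CPM in cluster 7. For Fgf1 and for Fgfr3 no library of a cluster overlapped a library of another. This was so for 2 of the 5 members with at least 10 CPM there and for 1.84% of the 10501 such genes, and the comparison was chosen after its values were seen.

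Fgf2, a ligand without a classical secretion signal, was spread over several types. In fibroblasts it stood at 59.0 CPM in nTg female 1, 76.9 and 63.8 CPM in Tg female 1 and 2, and 66.7 and 73.9 CPM in Tg male 1 and 2 (68.1 ± 7.36). Smooth muscle had a higher mean of 72.3 ± 35.2 CPM, but its libraries ran from 37.8 to 116 CPM, so these leading types cannot be ordered. Endocardial nuclei had 41.7 ± 15.1 CPM and cardiomyocytes 30.2 ± 5.75 CPM, and their ranges overlapped. Among the small types, the 186 Schwann nuclei gave 78 UMIs of Fgf2, a pooled level of 143 CPM with a 95% Poisson interval of 113 to 178. In the small types the library values rest on few UMIs, between 10 and 21 a library for Fgf2 in Schwann nuclei.

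Fgf9, a ligand of the developing myocardium, was highest in cardiomyocytes among the 8 types, and none of the other 7 overlapped them. Cardiomyocytes held 21.1, 26.2, 26.3, 19.1 and 23.2 CPM in nTg female 1, then Tg female 1 and 2, then Tg male 1 and 2 (23.2 ± 3.16). Macrophages held 7.44 ± 3.97 CPM from 48 UMIs in all, 32.9% ± 17.5 of the cardiomyocyte level, while Ttn there was at 0.902% and Myh6 at 5.88%. In Tg female 2 the macrophage share was 8.09% for Fgf9 and 7.63% for Myh6. Fibroblasts also gave 48 UMIs, at 1.39 ± 0.779 CPM. No Fgf9 UMI was counted in endocardial, lymphatic endothelial, pericyte or smooth muscle nuclei. In the 2153 pericytes a count of 0 allows up to 0.601 CPM by a floor of 3 counts, and up to 0.739 CPM by the 95% Poisson interval. The 105 mesothelial nuclei gave 16 UMIs, a pooled level of 40.6 CPM (23.2 to 66.0).

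Fgf16, from the same subfamily as Fgf9, was low, and higher in cardiomyocytes than in fibroblasts in 5 of 5 libraries, although the ranges over libraries overlapped. Cardiomyocytes held 10.4 CPM in nTg female 1, 23.7 and 16.8 CPM in Tg female 1 and 2, and 10.6 and 11.8 CPM in Tg male 1 and 2. Fibroblasts held 11.2 ± 2.86 CPM, and their range of 8.06 to 15.7 CPM lay above that of smooth muscle, which came next with 3.48 ± 3.60 CPM. Fgf18, known from bone and lung, gave 4.10 ± 1.82 CPM in fibroblasts and 1.19 ± 0.648 CPM in cardiomyocytes. The 105 mesothelial nuclei gave 9 UMIs of Fgf18, a pooled 22.9 CPM (10.5 to 43.4).

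Fgf10 was counted almost only in fibroblasts among the 8 types: 1717 UMIs came from fibroblasts and 8 from pericytes, which came next. The fibroblast level was 35.4 CPM in nTg female 1, 37.5 CPM in Tg female 1, 14.9 CPM in Tg female 2, 66.9 CPM in Tg male 1 and 90.6 CPM in Tg male 2. The male libraries were both above all 3 female libraries. Pericytes held 1.45 ± 0.989 CPM, and no UMI was counted in lymphatic endothelial or smooth muscle nuclei. After each nucleus was thinned to 1000 UMIs, 3.46% ± 2.22 of fibroblasts held an Fgf10 UMI (6.29% ± 3.87 before thinning). In endothelial nuclei the thinned share was 0.0298% ± 0.0667 (0.0600% ± 0.0822 unthinned), which serves as the background. Median depth was 2076 to 3027 UMIs in fibroblasts and 1557 to 2208 UMIs in endothelial nuclei.

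Fgf7 was found in cardiomyocytes and fibroblasts, and its level in cardiomyocytes differed widely between libraries. Cardiomyocytes held 23.0 CPM in nTg female 1, 45.2 CPM in Tg female 1, 157 CPM in Tg female 2, 52.4 CPM in Tg male 1 and 15.7 CPM in Tg male 2. The level in Tg female 2 rests on 971 UMIs and was the highest of the 5. Over all 5 libraries the cardiomyocyte mean was 58.6 CPM, the highest of the types compared. Without Tg female 2, fibroblasts led with a mean of 34.2 CPM, just above cardiomyocytes. Fibroblasts held 39.1, 53.6, 36.7, 23.8 and 20.3 CPM in the same library order. The other 6 types had 1.84 CPM or less on average. The thinned share in cardiomyocytes was 4.40% ± 4.08 and in fibroblasts 2.85% ± 0.938, against 0.0941% ± 0.0732 in endothelial nuclei (unthinned 17.9% ± 9.67, 6.97% ± 2.32 and 0.221% ± 0.157).

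In each large cardiomyocyte cluster, Tg female 2 was the library with the most Fgf7. In Tg female 2 the level was 129 CPM in cluster 4, 165 CPM in cluster 5 and 138 CPM in cluster 6. In Tg male 2 it was 16.2 CPM in cluster 4 and 15.6 CPM in cluster 6. Cluster 5 held 1234 nuclei of Tg female 1 and 678 of Tg female 2, but 40, 18 and 9 of nTg female 1, Tg male 1 and Tg male 2. Cardiomyocyte clusters thus differ in their library make-up, while the order of Tg female 2 and Tg male 2 was the same in clusters 4 and 6.

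Fgf7 lies at chr2:126034658-126091185 (plus strand, GRCm38, GENCODE vM21), and Fam227b overlaps it on the minus strand. The strand rule of the counting is not given in the sources used here, so reads of these genes cannot be told apart with certainty. The same limit holds for Fgf1 and Fgf2, which each overlap 1 protein-coding gene on the opposite strand. Fgf9, Fgf10 and Fgfr3 each overlap 1 opposite-strand gene that is not protein-coding, and Fgf2 also overlaps 1 gene on its own strand. Fam227b was also the gene most like Fgf7 over the 40 sums of 8 types and 5 libraries (r = 0.919 of log2(CPM + 1), given as a description; sums of a library share its depth and chemistry). In cardiomyocytes Fam227b stood at 41.9, 76.1, 121, 89.9 and 26.1 CPM in nTg female 1, then Tg female 1 and 2, then Tg male 1 and 2, and Tg female 2 was again the highest and Tg male 2 the lowest. The number of Fam227b UMIs for each Fgf7 UMI was not constant: it ran from 0.772 to 1.82 in cardiomyocytes and from 2.30 to 4.42 in fibroblasts. Of the cardiomyocytes with an Fgf7 UMI, 63.8% also held a Fam227b UMI, against 15.3% of the other cardiomyocytes, with median depths of 7822 and 6811 UMIs. In fibroblasts these shares were 64.6% and 11.99%, at 2937 and 2580 UMIs.

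**Figure D2:**
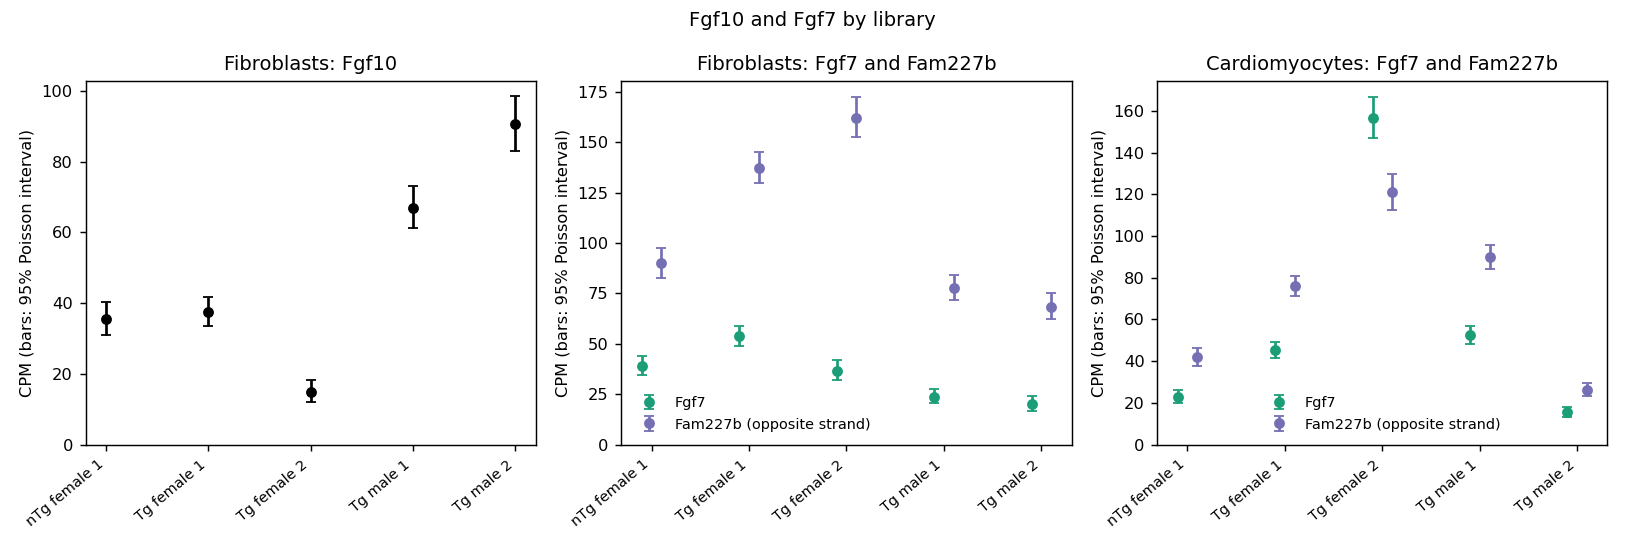
Fgf10 in fibroblasts, and Fgf7 with the opposite-strand gene Fam227b in fibroblasts and cardiomyocytes. The vertical axes are CPM, each point is a library, and bars are 95% Poisson intervals that cover counting error only. Fgf10 is highest in the libraries labelled male, and in cardiomyocytes both Fgf7 and Fam227b are highest in Tg female 2.

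The start regions of the ligands Fgf7 and Fgf10 are shown because these genes shared a leading fibroblast subcluster, described below, and had sex differences of opposite sign there, in a contrast chosen after the data were seen. Each is the 250 bases before the RefSeq start (GRCm38.p6, plus strand), at chr2:126034408-126034657 for Fgf7 and chr13:118714449-118714698 for Fgf10, written 5′ to 3′ with matches to the searched motifs in capitals.
Fgf7: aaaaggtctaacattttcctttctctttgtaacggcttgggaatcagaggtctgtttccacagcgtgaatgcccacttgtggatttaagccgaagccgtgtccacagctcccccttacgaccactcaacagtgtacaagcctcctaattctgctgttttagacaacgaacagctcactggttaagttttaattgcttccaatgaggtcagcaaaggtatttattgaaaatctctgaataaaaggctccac
Fgf10: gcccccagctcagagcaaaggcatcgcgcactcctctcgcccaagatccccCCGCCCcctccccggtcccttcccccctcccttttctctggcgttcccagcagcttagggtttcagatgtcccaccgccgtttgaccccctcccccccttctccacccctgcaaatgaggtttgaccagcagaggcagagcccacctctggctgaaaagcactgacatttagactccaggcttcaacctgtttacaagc
Searches on both strands covered the TATA box TATAAA, then the GC box, written GGGCGG, and finally the E box sequence, which is CAGCTG, and none of them is part of another. The Fgf10 window holds 1 GGGCGG, written here as its complement, and the Fgf7 window holds none of the 3. Of 32851 windows of this length in the RefSeq table, 32.7% hold the GC box and 12.4% the TATA box, while 4271 windows hold the E box sequence. The share of G and C was 43.6% for Fgf7 and 61.2% for Fgf10, with a median of 52.4% over all windows.

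The receptor Fgfr1, the main mesenchymal FGF receptor, was high in fibroblasts, macrophages and smooth muscle. Fibroblasts held 371, 350, 378, 382 and 357 CPM in nTg female 1, then Tg female 1 and 2, then Tg male 1 and 2 (368 ± 13.5). Macrophages held 311 CPM in nTg female 1, 220 and 324 CPM in Tg female 1 and 2, and 432 and 490 CPM in Tg male 1 and 2. Smooth muscle held 292 ± 70.2 CPM, and these 3 types overlapped. Below them the order was the same in all 5 libraries without overlap: lymphatic endothelial (120 ± 16.8), endocardial (82.6 ± 9.23), endothelial (45.9 ± 3.46), cardiomyocyte (21.9 ± 4.43) and pericyte nuclei (8.36 ± 1.87 CPM). The mural types thus stood at opposite ends, with the lowest smooth muscle library at 194 CPM and the highest pericyte library at 10.7 CPM. Thinned to 1000 UMIs, 29.4% ± 1.17 of fibroblasts, 25.2% ± 7.28 of macrophages and 0.669% ± 0.370 of pericytes held an Fgfr1 UMI (unthinned 58.1% ± 4.47, 40.2% ± 9.06 and 1.67% ± 0.459). Gm16159, a gene inside Fgfr1 on the opposite strand, was the most like it (r = 0.917 over the 40 sums). For each Fgfr1 UMI it had 0.107 to 0.228 UMIs in fibroblasts.

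Fgfr3 was a receptor of blood endothelial and endocardial nuclei. Endothelial nuclei held 95.7 CPM in nTg female 1, 78.8 and 79.2 CPM in Tg female 1 and 2, and 101 and 118 CPM in Tg male 1 and 2 (94.4 ± 16.4). Endocardial nuclei held 64.2 ± 10.1 CPM, below the endothelial level in every library. Lymphatic endothelial nuclei held 9.51 ± 7.95 CPM, and cardiomyocytes 0.721 ± 0.233 CPM. The thinned share was 8.58% ± 1.62 in endothelial nuclei and 0.0769% ± 0.109 in cardiomyocytes (15.5% ± 3.58 and 0.466% ± 0.098 unthinned). The 127 T and NK nuclei gave 13 UMIs, a pooled 41.9 CPM (22.3 to 71.7), with libraries from 0 to 150.8 CPM. The 9 endothelial markers summed to between 539.8 and 4157 CPM in these nuclei and to between 10660 and 13050 CPM in endothelial nuclei; their part in this Fgfr3 level was not tested.

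Counts listed under Fgfr2 were far higher in cardiomyocytes than in any other type and similar among the rest. Cardiomyocytes held 5329 CPM in nTg female 1, 3942 and 6533 CPM in Tg female 1 and 2, and 7512 and 9679 CPM in Tg male 1 and 2. Endothelial nuclei came next with 1249 ± 188 CPM, and the 7 other types had means between 860 and 1249 CPM. These counts cannot be assigned to the receptor with certainty. In GENCODE vM21, which lists 32158 of the 32285 gene identifiers of the tables, Fgfr2 spans chr7:130162451-133123350 on the minus strand, or 2960900 bases. This span rests on 1 of its 27 transcripts, with support level 5, while the other 26 fit within 103813 bases and the RefSeq gene has 104358 bases. The long model overlaps 69 other genes, 14 of them protein-coding on the same strand. The annotation release and the counting of introns are not given in the sources used here, so the share of UMIs from other genes was not tested.

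**Figure D3:**
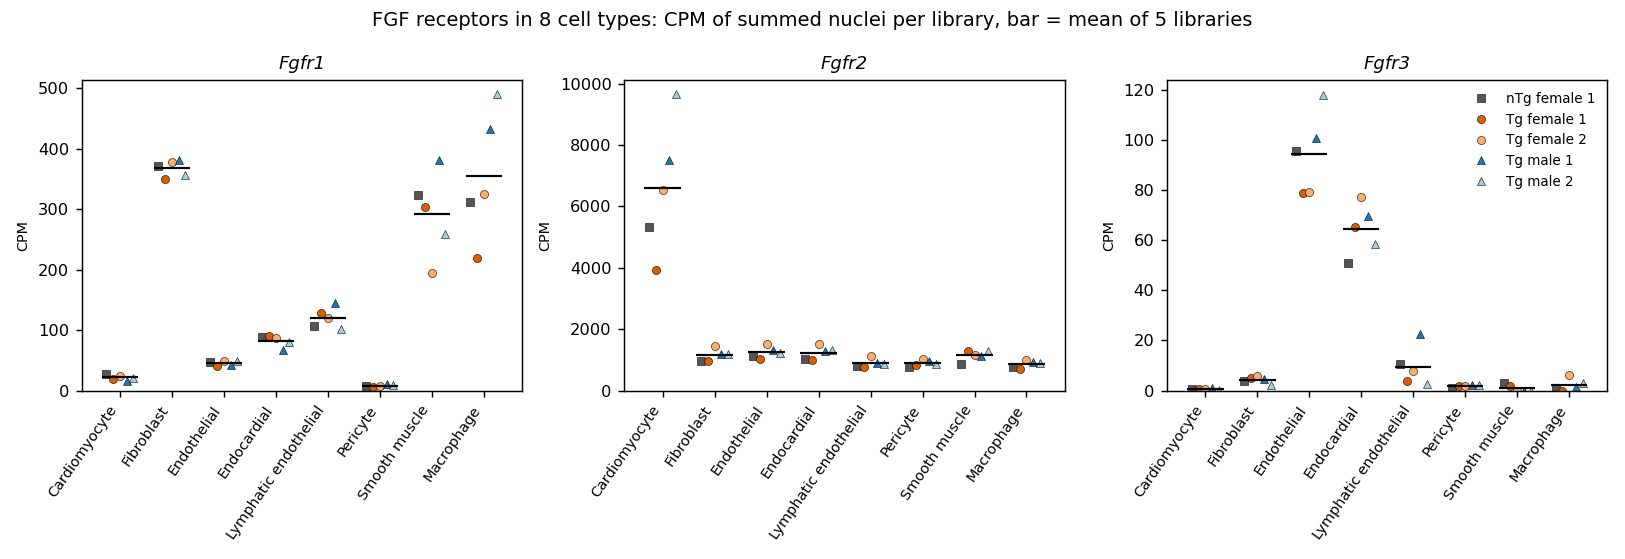
Levels of the 3 receptors in 8 cell types. The vertical axis is CPM of the summed nuclei, each point is a library and each bar the mean of 5 libraries. Fgfr1 falls from about the same level in fibroblasts, macrophages and smooth muscle to 8.36 CPM in pericytes, Fgfr3 is highest in endothelial and endocardial nuclei, and the counts listed under Fgfr2 are highest in cardiomyocytes.

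The genes whose levels were most like those of a member were taken from the same 40 sums, among 13873 genes, as a description of these libraries. For Fgf10 they were Gm9947 (r = 0.968), the complement gene C7 (r = 0.949) and A830012C17Rik (r = 0.946). For Fgfr3 they were Clec14a (r = 0.926), an endothelial surface lectin, Dhh (r = 0.925), a hedgehog ligand, and AU021092 (r = 0.920). For Fgf1 they were Smtn (r = 0.895), Filip1 (r = 0.891) and Vcl (r = 0.883); Smtn and Vcl encode cytoskeletal proteins of contractile cells. Fgf2 was like Xrcc5 (r = 0.868) and Pknox2 (r = 0.863), Fgf9 most like Gm20619, 5430427O19Rik and Gm13479 (0.908 to 0.921), and Fgf16 most like Armh4, Tmem65 and Nkain1 (0.834 to 0.869). Nkain1 (r = 0.910) and Mme (r = 0.888) followed Fam227b for Fgf7, Il16 (r = 0.861) and Pmepa1 (r = 0.839) followed Gm16159 for Fgfr1, and Acsm5, Gm32081 and Gm35041 led for the counts of Fgfr2 (0.952 to 0.954).

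The 12651 fibroblast nuclei were clustered again without the members, which gave 10 subclusters, 6 of them with at least 25 nuclei in every library. Only these 6 were compared with each other. Subclusters are called by number and by their leading genes and carry no type name. For 1 of the 10 members, Fgf2, the leading subcluster lay above all others compared in every library. This was so for 3.1% of the 11800 genes with at least 10 CPM in a subcluster. Fgf7 and Fgf10 had the same leading subcluster, number 3 (2837 nuclei, led by Nkain2, Inmt and Chrm3). There Fgf10 stood at 96.2 CPM in nTg female 1, 113 and 50.2 CPM in Tg female 1 and 2, and 180 and 209 CPM in Tg male 1 and 2. Fgf7 stood at 55.1, 105, 84.2, 41.4 and 35.7 CPM in the same order. Both male libraries were the highest for Fgf10 and the lowest for Fgf7. Subcluster 1 (4972 nuclei, led by Kcnip1) had 14.6 ± 16.1 CPM of Fgf10 and 24.7 ± 12.8 CPM of Fgf7, and subcluster 4 (960 nuclei, led by Atp6v0a4, Cilp and Gm28153) had 6.24 ± 8.83 CPM of Fgf10.

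Subcluster 5 (428 nuclei, led by Erbb4 and Wif1, the latter a secreted WNT inhibitor) held the most Fgf2 of those compared. Its level was 159, 178, 146, 106 and 345 CPM in nTg female 1, then Tg female 1 and 2, then Tg male 1 and 2, against 79.4 ± 12.7 CPM in subcluster 4, which came next. The highest value comes from 38 nuclei and 41 UMIs in Tg male 2. The other 4 libraries still lay above every library of the other subclusters compared. Fgf9 (18.7 ± 19.2 CPM) and Fgf18 (16.9 ± 11.02 CPM) also had their highest means there, on 23 and 21 UMIs, with libraries that overlapped those of other subclusters. Without Tg male 2 the Fgf9 mean there was 10.8 CPM. Of the subclusters compared, Fgfr1 was lowest in subcluster 5, at 268 ± 54.6 CPM. It was highest in subcluster 2 (3010 nuclei, led by Duoxa1, Duox1 and Dpp4), at 442 ± 29.1 CPM. Fgf16 was highest in subclusters 2 (22.1 ± 6.24 CPM) and 4 (20.3 ± 10.8 CPM), which overlapped.

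Of the 4 subclusters too small to compare, number 10 had 12 nuclei led by Car3, Cidec and Cfd, with Plin1 and Adipoq also among its 10 leading genes. Cidec, Plin1 and Adipoq are adipocyte genes on a marker list used here. These nuclei gave 59 of the 1717 fibroblast UMIs of Fgf10, a pooled 863 CPM (657 to 1113), and Fgf10 was seen in each of the 5 libraries. They add little to the fibroblast level, and subcluster 3 alone gave 1172 UMIs. The same 12 nuclei gave 14 UMIs of Fgf2, a pooled 205 CPM (112 to 343.5), beside a pooled 168 CPM in subcluster 5.

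**Figure D4:**
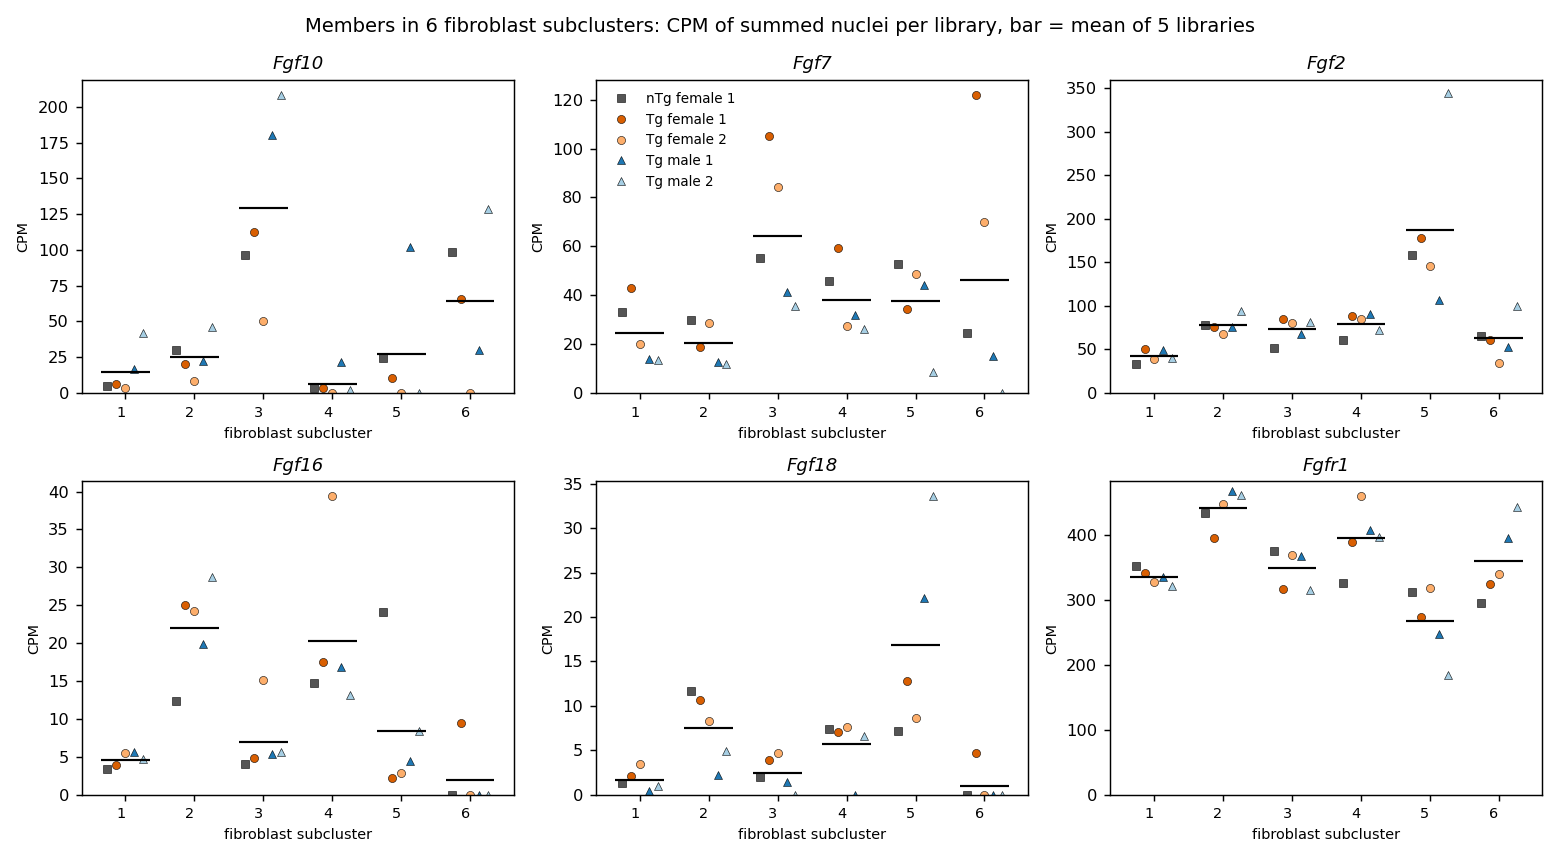
Levels of 6 members in 6 fibroblast subclusters. The vertical axis is CPM of the summed nuclei, each point is a library and each bar the mean of 5 libraries. Fgf10 and Fgf7 have their highest means in subcluster 3, Fgf2 in subcluster 5, and Fgfr1 runs from 268 CPM in subcluster 5 to 442 CPM in subcluster 2.

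Sex was compared within the 4 libraries labelled Tg, 2 female and 2 male, with the edgeR quasi-likelihood test on UMI sums per type and Benjamini-Hochberg (BH) adjustment over all genes of a type. The female libraries differ in Ccna2 too, at 0.524 CPM in cardiomyocytes of Tg female 1 and 820 CPM in Tg female 2, against 143 and 232 CPM in the male libraries; its part in the sex contrast was not tested. Differences are log2 of female over male with a standard error (SE). No member passed an adjusted p of 0.05 in any type, 0 of 42 pairs of member and type, while 0.189% of the 86232 pairs of all genes passed. By type, the share of all genes that passed was 0.402% in fibroblasts, 0.0264% in cardiomyocytes, 0.163% in endothelial nuclei and 0.178% in macrophages. At an unadjusted p under 0.05 there were 7 member pairs, and DESeq2 also called 0, with 8 at an unadjusted p under 0.05. The share of all pairs under this unadjusted threshold was not counted, so these numbers are not read as a result. The 7 pairs were Fgf1, Fgf7, Fgf10 and Fgf18 in fibroblasts, Fgf16 in cardiomyocytes, Fgfr1 in macrophages and Fgfr3 in endothelial nuclei. In each of them both libraries of one sex lay above both of the other, which was so for 37.8% of all pairs tested.

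In fibroblasts, Fgf10 averaged 26.2 CPM in female libraries against 78.8 CPM in male ones (log2 difference -1.65, SE 0.38, edgeR adjusted p = 0.155). Fgf7 averaged 45.2 CPM in females against 22.0 CPM in males (0.95, SE 0.23, edgeR adjusted p = 0.169). The opposite-strand gene Fam227b had the same direction there. It stood at 137 and 162 CPM in Tg female 1 and 2, and 77.8 and 68.5 CPM in Tg male 1 and 2. Its part in the Fgf7 difference was not tested. Fgf18 followed Fgf7 in direction, with 5.63 against 2.18 CPM (1.30, SE 0.39, edgeR adjusted p = 0.267), and Fgf1 with 60.8 against 36.7 CPM (0.63, SE 0.26, edgeR adjusted p = 0.462). Fgfr1 in macrophages averaged 272 CPM in females against 461 CPM in males (-0.79, SE 0.22, edgeR adjusted p = 0.285). Fgf16 in cardiomyocytes (0.83, SE 0.24, edgeR adjusted p = 0.512) and Fgfr3 in endothelial nuclei (-0.53, SE 0.17, edgeR adjusted p = 0.357) did not pass either. Cardiomyocyte Fgf7 differed by 1.51 (SE 0.66, edgeR adjusted p = 0.725), and its female and male libraries overlapped. The size of these differences depended on single libraries. For Fgf10 in fibroblasts it was -2.53 without Tg female 1 and -1.14 without Tg female 2. Without Tg male 1 it was -1.86, and without Tg male 2 it was -1.42. For Fgf7 in fibroblasts it was 0.60 without Tg female 1 and 1.21 without Tg female 2. Such fits leave 1 library in a sex, so their calls are not read.

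Fibroblast subcluster 3, which led for Fgf7 and Fgf10, made up 22.0% and 15.9% of the fibroblasts in Tg female 1 and 2 and 27.1% and 26.9% in Tg male 1 and 2. The members were therefore tested within each subcluster, an alternative chosen after the data were seen. Adjustment was made within each of the 6 subclusters and not over them, and members passed in subcluster 3 only. There 2 of 7 members passed, and 1.5% of the 12295 genes tested did. Fgf10 was lower in the female libraries, with 81.4 against 194 CPM (log2 difference -1.27, SE 0.28, edgeR adjusted p = 0.0457). Fgf7 was higher in them, with 94.8 against 38.6 CPM (1.24, SE 0.22, edgeR adjusted p = 0.0126). The limit from the opposite-strand gene Fam227b holds for this Fgf7 difference too. With each library left out in turn, the log2 difference ran from -2.06 to -0.84 for Fgf10 and from 1.01 to 1.39 for Fgf7. Those fits leave 1 library in a sex, so their calls are not read. In subclusters 1 and 2 neither gene passed; Fgf10 differed by -2.65 (SE 0.49, edgeR adjusted p = 0.0578) and -1.22 (SE 0.42, edgeR adjusted p = 0.403), and 0.514% and 0.661% of all genes were called. Fgf7 differed by 0.54 (SE 0.42) in subcluster 4 and 0.39 (SE 0.63) in subcluster 5, and in both its female and male libraries overlapped. In subclusters 4, 5 and 6, 0.478%, 0.117% and 0.907% of all genes were called. Whether the sex difference itself differs between subclusters was not tested.

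**Figure D5:**
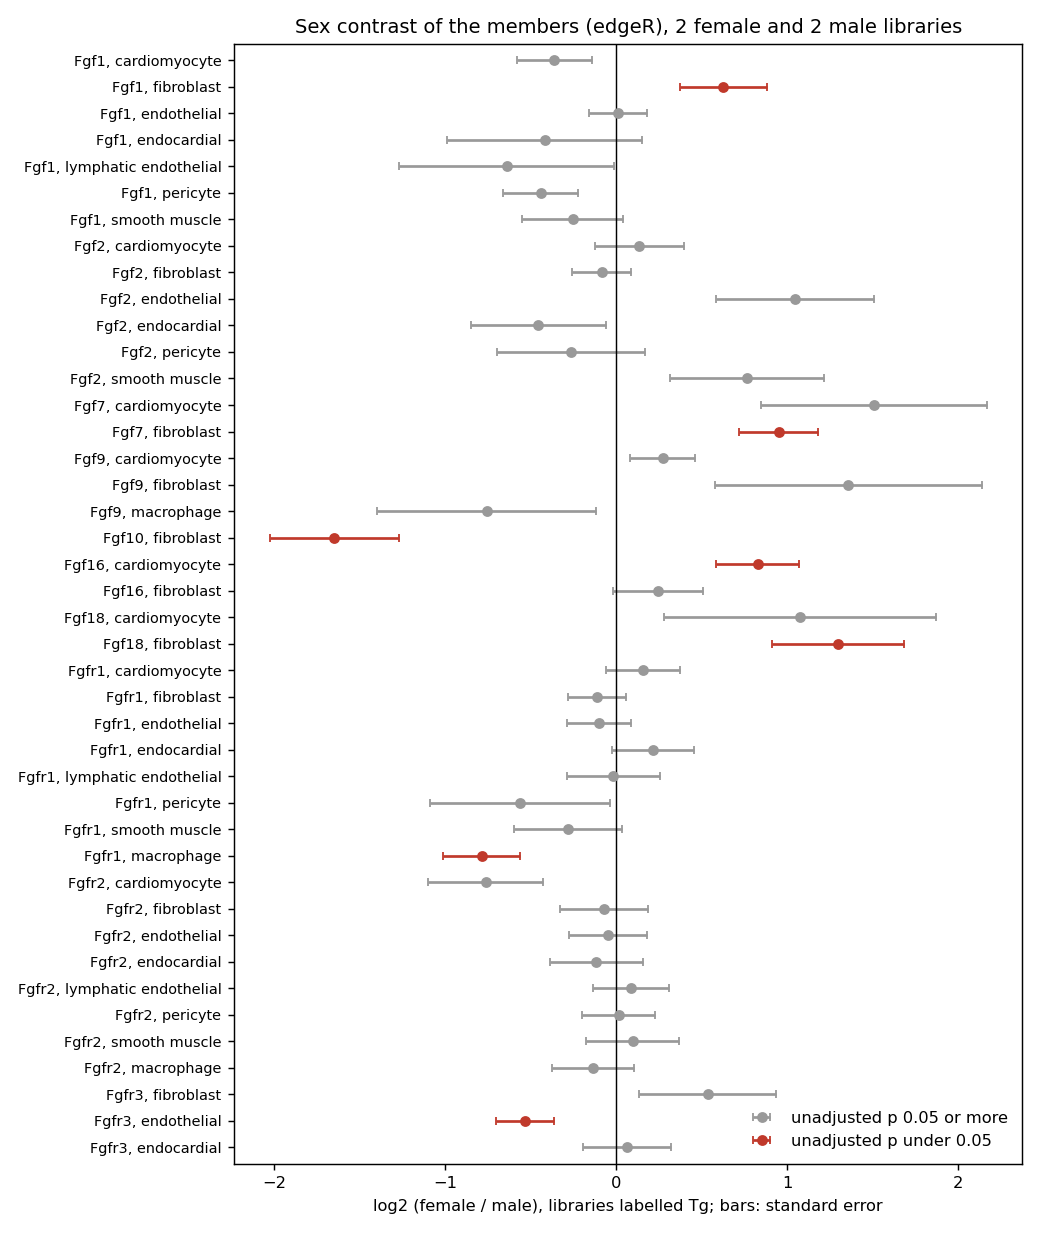
Sex contrast of the members in each cell type where they could be tested. The horizontal axis is log2 of female over male in the libraries labelled Tg, points are edgeR estimates and bars standard errors; red marks an unadjusted p under 0.05. Fgf10 in fibroblasts lies farthest to the left at -1.65, and 0 of the 42 estimates pass after adjustment.

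The library labelled nTg female 1 was set beside the 4 labelled Tg without a test, since it is a single library and Ccna2 goes against its label. Of 37 pairs of member and type with at least 10 CPM, 1 fell outside the range of the Tg libraries and at least 2-fold from their mean. Over all genes, 5.23% of 81266 pairs did so. The pair was Fgf1 in lymphatic endothelial nuclei, with 13.3 CPM from 5 UMIs (95% Poisson interval 4.33 to 31.1) against 34.1 ± 24.5 CPM (n = 4), and its value lay just below the lowest Tg library at 13.5 CPM.

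Genes that work with the members were read from 5 lists. None of the 11 other secreted FGFs reached 10 CPM in any of the 8 types; the highest were Fgf20 in fibroblasts (3.31 ± 1.73 CPM), Fgf22 in endocardial nuclei (2.67 ± 3.26 CPM) and Fgf6, which stood at 2.12 ± 0.808 CPM in cardiomyocytes. Among 6 other receptors and co-receptors, Flrt2, a membrane protein that binds FGF receptors, reached 444 ± 108 CPM in endocardial nuclei, and Flrt3 reached 33.2 ± 14.9 CPM in lymphatic endothelial nuclei. All 15 genes of heparan sulfate proteoglycans and their enzymes passed 10 CPM, and 4 had a leading type above all others in every library, set against 30.7% of all such genes. The glypican Gpc6 led in pericytes (4546 ± 474 CPM) and the syndecan Sdc2 in fibroblasts (824 ± 139 CPM) without overlap. The sulfatase Sulf1 in fibroblasts (892 ± 85.7 CPM) and the chain-building enzyme Ext1 in endothelial nuclei (1237 ± 154 CPM) overlapped with the next type.

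All 14 signal transducers passed 10 CPM, 5 with a leading type that did not overlap, set against 30.7% of all such genes. Grb2, an adaptor, was highest in macrophages (288 ± 30.8 CPM) without overlap. Gab1 and Braf had their highest means in pericytes (461 ± 79.2 and 261 ± 24.6 CPM). Of the 10 feedback regulators and target genes, 3 had a separate leading type, set against the same 30.7%. Spry2, a feedback inhibitor of FGF receptor signalling, was highest in pericytes (101 ± 16.1 CPM), the type with the least Fgfr1, without overlap. Spred1 (363 ± 105 CPM) and Etv1 (230 ± 35.4 CPM) had their highest means in macrophages and Spred2 (265 ± 38.3 CPM) in endothelial nuclei. In the sex contrast 0 pairs of these 5 lists passed; the median log2 differences were 0.79, 0.04, 0.03, -0.10 and 0.12 over 5, 13, 92, 104 and 56 pairs, in the order the lists are described, and 0.01 over all pairs tested.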

How the data were processed

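Nuclear RNA of adult mouse hearts was counted per gene and nucleus with 10x Genomics droplets. The deposited matrices hold whole-number counts (UMIs) that the authors made with Cell Ranger 7.0.0, per the file headers; the submitters' processing notes name the build mm10. The annotation and the counting of introns and strand are not given in the sources used here. Of 8 libraries, 3 matrices labelled nTg were identical to matrices labelled Tg and did not match their own barcode lists, and they were not used.

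Barcodes with at least 200 genes and at most 5% mitochondrial UMIs were kept, and called doublets (scrublet in scanpy 1.11.5) were removed, between 7.63% and 9.68% of a library. In Tg female 2 the caller marked 0%, so the 9.08% with the highest scores were removed. Nuclei were clustered (2000 variable genes, 30 components, 15 neighbours, Leiden resolution 1) without the members, Fgf11 to Fgf14, sex-linked genes and Ccna2; 2 clusters of 350 nuclei in all stayed unnamed, and the naming rule was settled after the clusters were seen. UMIs were summed per library and type; CPM, mean and SD over 5 libraries, and 95% Poisson intervals, which cover counting error only, follow from the sums. Sums of types tested held 211666 to 13360059 UMIs. For shares, nuclei were thinned to 1000 UMIs, which left out 8 to 343 nuclei a type. Sex was tested with edgeR 4.0.16 (filterByExpr, TMM, quasi-likelihood, BH at 0.05), with DESeq2 1.42.0 as an alternative. On simulated data with 200 changed genes, the edgeR step in fibroblasts called 31% of genes changed 2-fold and 86% of those changed 4-fold, among 15416 genes, and 4.1% of its calls were false. In cardiomyocytes it called 21% and 73% among 15137 genes, and 10.5% of its calls were false.

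Members and gene lists were chosen with earlier results of these data known. Named genes are the 10 members, the 3 genes most correlated with each member of at least 10 CPM over the 40 sums, and the 2 to 4 genes of each list with the highest mean CPM; 2 genes that this rule names are not reported here. Gene positions come from GENCODE vM21 and RefSeq (GRCm38), and 7 members had a promoter entry. One alternative, the sex contrast within fibroblast subclusters, was added after the data were seen.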

Additional observations from a re-analysis of the deposited data

How the results depend on the processing

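The sex contrast called 163 pairs of gene and type with edgeR, 67 with all 5 libraries and no covariate, 561 with DESeq2, 1876 with every gene that had a UMI, and 611 to 2595 with a library left out; with the genotype covariate or RLE factors the count stayed within 1.5 times. Of the members, 0 pairs passed with edgeR, with DESeq2, with either 5-library fit and with RLE factors, 3 with every gene that had a UMI (Fgf7 and Fgf10 in fibroblasts, Fgfr1 in macrophages), and 1 to 2 with a library left out, where the lone library of a sex is assumed to vary like the other group. With every gene that had a UMI, the 3 member calls came from 71 member pairs, beside 1876 calls from 162406 pairs of all genes. Fits with a library left out leave 1 library in a sex, so their calls are not read. The replicate block gave 790 calls from 86232 pairs of all genes. It gave 2 calls from 42 member pairs, Fgf7 and Fgf10 in fibroblasts. Replicate numbers were not taken as pairs: nothing in the labels ties them, and the deviations of same-numbered libraries correlated at -0.053 to 0.143 over the 8 types. The fibroblast differences of Fgf10 and Fgf7 kept their direction under all alternatives run. Fgf10 ran from -2.53 to -1.14 and Fgf7 from 0.60 to 1.21 with a library left out. The number of members whose leading fibroblast subcluster stood apart was 1, but 2 at resolution 0.3 and 1 to 2 with a library left out. The number of member pairs that set the nTg library apart was 1, and 1 to 2 with a Tg library left out. Leading types that stood apart (5 members, 4 to 5 under alternatives) and the members led by the same type in thinned shares and in CPM (9, 10 at 500 UMIs) held. Of 140 member levels under alternatives, 136 moved by less than the spread between libraries or kept their leading group, and 4 did not. Fgf2 led in another type without nTg female 1 or Tg female 1. Fgf7 was led by fibroblasts, just above cardiomyocytes, without Tg female 2, and Fgfr1 was led by macrophages without Tg female 1. With 2 libraries a sex, and about 20 UMIs for some subcluster values, smaller differences were not detectable at this depth.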
